A study of Homo sapiens with 4 samples.

Results

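The genes described here were expressed in a prostate cancer cell line and had at most 1/16 of that level in its UGT2B17 knockout, where most of them were nearly silent. LNCaP95 cells derive from the prostate cancer line LNCaP and proliferate in the absence of androgen. LN95(KO) is, per the labels and the study's methods, the UGT2B17 knockout made from it with CRISPR, whereas the design text of the series writes LNCaP(UGT2B17 KO). Every comparison below takes LNCaP95 as the parent. The sources used here do not say how many clones LN95(KO) represents. UGT2B17 encodes an enzyme that joins glucuronic acid to androgens and so inactivates them. RNA-Seq of poly(A) RNA was available from 2 libraries of LNCaP95 (labelled genotype WT, replicates 1 and 2) and 2 libraries of LN95(KO) (replicates 3 and 4). Both lines grew in RPMI1640 medium with charcoal-stripped serum, which is low in steroid hormones, and no treatment was given. Whether the libraries of a group came from separate cultures was not stated, so the spread between them may be technical.

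Members were selected on their measured levels in these libraries. Counts were scaled by the total gene reads of each library to CPM, the reads of a gene per 1000000 gene reads. A gene was a member where its mean in LNCaP95 was at least 1 CPM and its mean in LN95(KO) was at most 1/16 of that. UGT2B17, the edited gene, and ST8SIA4 also met these limits and were left out. This gave 127 members of 60880 genes listed, or 0.919% of the 13817 genes with at least 1 CPM in LNCaP95. The reverse rule, with the lines exchanged, found 101 genes. Because the selection used the difference between the lines, the size of that difference among members is given as a description.

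Many of the members belong to programmes that are best known outside the prostate. Reelin is a secreted protein that guides migrating neurons. It binds the receptors VLDLR and LRP8, and these pass the signal to the adaptor DAB1 inside the cell. Neurexins, neuroligins, LRRTM and SLITRK proteins hold the sending and receiving sides of a synapse together, while synaptic vesicle proteins, liprins, RIM and Munc13 proteins prepare vesicles for release. Prostate cancers that progress under androgen deprivation can take on neural traits, and factors such as MYCN are known from such tumors. Other members come from exocrine pancreas, motile cilia or tooth enamel, or are olfactory receptors with known expression in prostate epithelium.

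The promoters of 5 members are shown because they range from annotated starts rich in CG dinucleotides to starts almost without them. The sequences are RefSeq windows on GRCh38.p14 from 250 bases before to 50 bases after an annotated start, written 5′ to 3′ on the strand of the gene. Capitals mark CG dinucleotides. The LUZP2 window lies at chr11:24496803-24497102 on the plus strand, the SPAG16 window at chr2:213284214-213284513 on the plus strand, the RELN window at chr7:103989609-103989908 on the minus strand, the WDR72 window at chr15:53762829-53763128 on the minus strand, and the PRSS1 window at chr7:142749222-142749521 on the plus strand.
LUZP2: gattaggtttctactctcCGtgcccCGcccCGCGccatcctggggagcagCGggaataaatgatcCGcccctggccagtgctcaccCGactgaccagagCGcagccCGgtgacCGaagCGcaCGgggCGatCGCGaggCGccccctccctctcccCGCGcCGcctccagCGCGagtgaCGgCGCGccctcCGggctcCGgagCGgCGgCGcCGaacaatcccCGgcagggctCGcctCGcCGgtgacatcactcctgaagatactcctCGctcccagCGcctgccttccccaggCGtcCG
SPAG16: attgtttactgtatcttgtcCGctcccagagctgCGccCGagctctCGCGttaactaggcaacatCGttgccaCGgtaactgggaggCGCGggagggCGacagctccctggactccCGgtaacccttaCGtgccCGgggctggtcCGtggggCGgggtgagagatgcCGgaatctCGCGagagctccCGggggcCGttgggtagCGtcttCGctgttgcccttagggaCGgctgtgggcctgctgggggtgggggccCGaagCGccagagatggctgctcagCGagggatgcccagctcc
RELN: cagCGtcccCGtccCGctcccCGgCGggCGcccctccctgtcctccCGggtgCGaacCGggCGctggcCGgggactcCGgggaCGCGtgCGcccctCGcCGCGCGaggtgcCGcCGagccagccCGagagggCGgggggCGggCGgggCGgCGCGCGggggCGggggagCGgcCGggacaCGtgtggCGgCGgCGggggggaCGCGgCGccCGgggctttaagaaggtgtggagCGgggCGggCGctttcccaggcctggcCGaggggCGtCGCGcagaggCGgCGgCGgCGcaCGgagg
WDR72: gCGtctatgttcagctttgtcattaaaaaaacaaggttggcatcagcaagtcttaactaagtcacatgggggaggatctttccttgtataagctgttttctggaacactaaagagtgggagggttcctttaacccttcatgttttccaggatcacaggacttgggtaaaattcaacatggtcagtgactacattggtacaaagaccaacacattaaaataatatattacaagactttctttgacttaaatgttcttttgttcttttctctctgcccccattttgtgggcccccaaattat
PRSS1: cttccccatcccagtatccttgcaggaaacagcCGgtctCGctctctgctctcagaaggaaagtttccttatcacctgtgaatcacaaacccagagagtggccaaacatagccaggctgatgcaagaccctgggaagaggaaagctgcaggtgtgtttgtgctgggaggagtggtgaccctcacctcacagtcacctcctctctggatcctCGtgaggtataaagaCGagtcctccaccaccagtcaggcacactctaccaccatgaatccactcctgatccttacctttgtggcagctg
The RELN window held 52 CG dinucleotides, the LUZP2 window 38 and the SPAG16 window 26. By contrast, the PRSS1 window held 4 and the WDR72 window 1. Near-silence in LN95(KO) was thus seen in genes with annotated starts of very different base composition. Which start was in use was not measured.

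Depth was similar in the 4 libraries, with 17330338 to 18813193 gene reads, and a count of 0 allows up to 0.159 to 0.173 CPM (3 counts). Intervals and limits of this kind cover counting error alone. UGT2B17 had 2788 and 2748 reads in LNCaP95 but 21 and 20 in LN95(KO). All 11 luminal prostate markers examined, among them KLK3, HOXB13 and KRT8, were detected in both lines, and 4 of them were called higher and 1 lower in LN95(KO) by the test described below. Their summed levels were 3935 and 3905 CPM in LNCaP95 and 4520 and 4304 CPM in LN95(KO). Markers of other cell types were low. Summed over each list, 4 basal markers reached 0.159 and 0.214 CPM in LNCaP95 and 1.15 and 1.56 CPM in LN95(KO), and 3 endothelial markers 0.425 and 0.481 against 2.83 and 3.22 CPM. The 5 leukocyte markers, 3 of them at 0 throughout, stayed at or below 0.231 CPM. The 6 fibroblast markers reached 30.5 and 29.5 CPM against 38.9 and 35.5 CPM, with DCN and PDGFRA at 0 in all 4 libraries. Of the markers tested in these lists, 1 basal, 1 endothelial and 1 of 3 fibroblast markers were called higher in LN95(KO), and 0 were called lower. The part of these differences in the results was not tested. In bulk RNA, fewer cells expressing a gene and less RNA per cell cannot be told apart.

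Across the members, the median level was 5.11 CPM in LNCaP95 and 0.0855 CPM in LN95(KO). The other genes with at least 1 CPM in LNCaP95 had a median of 23.3 CPM there. The members therefore lay mostly in the lower part of the expressed range, with 32 under 2 CPM, 54 at 10 CPM or more and 11 at 100 CPM or more. Together the members held 0.467% of gene reads in LNCaP95 and 0.0124% in LN95(KO). In LNCaP95 42.5% of those reads came from ATP2B1, DDC and PLA2G2A. Both LN95(KO) libraries had 0 reads for 19 members, 47 members had 1 to 3 reads over the 2 libraries, and 61 had more. The name nearly silenced does not hold for all members in absolute terms, since 19 still reached 1 CPM or more in LN95(KO).

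**Figure D1:**
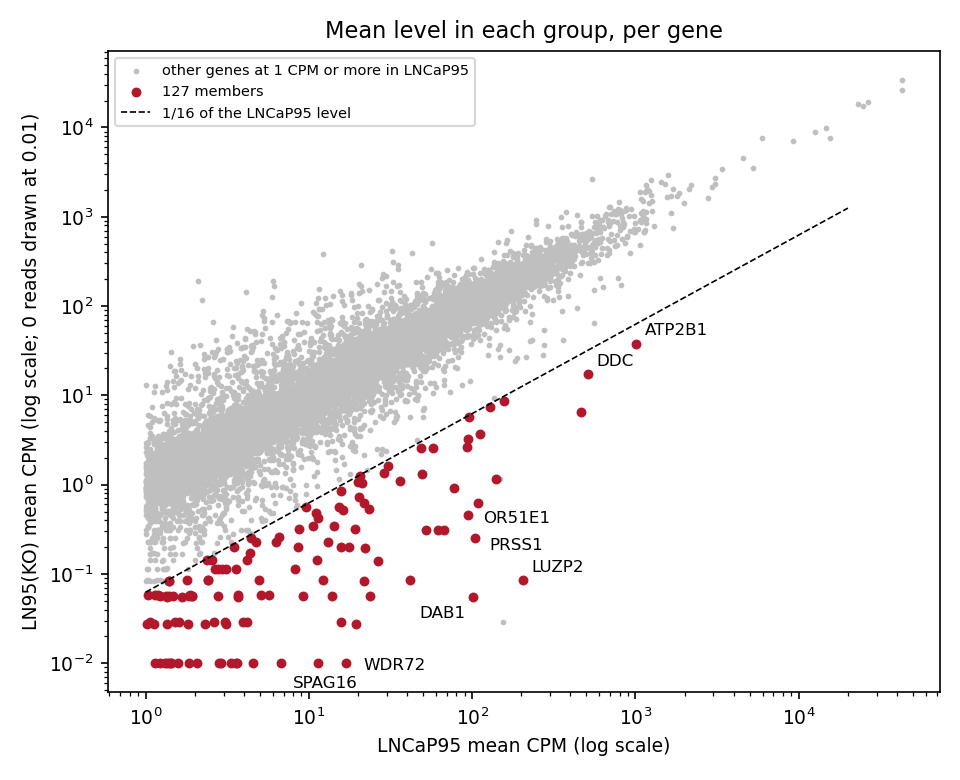
Mean CPM of each gene in LNCaP95 (x axis, log scale) and in LN95(KO) (y axis, log scale, genes with 0 reads drawn at 0.01 CPM), for genes with at least 1 CPM in LNCaP95. The 127 members (red) lie below the dashed line at 1/16 of the LNCaP95 level by construction, and the grey point visible below the line is ST8SIA4, which was left out. UGT2B17, also left out, is drawn in grey below the line too, close to the red point of GASK1B.

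Among the 126 members that entered the edgeR quasi-likelihood fit, 126 were called lower (Benjamini-Hochberg adjusted p under 0.05 and a fold change over 2). Over all genes tested 9.13% were called lower, and since the rule used the same contrast, nothing is read from the members' count. Both LN95(KO) libraries lay below both LNCaP95 libraries in 126 of 127 members, against 35.9% of all genes tested, and this too follows from the selection. RPS18, a ribosomal protein gene, was the exception and was not tested. It had 732 reads in LNCaP95 replicate 1 and 1 in replicate 2, with 0 and 1 in LN95(KO), so a single library made it a member. Its copy RPS18P5, a processed pseudogene, had 511 and 935 reads in LNCaP95 versus 711 and 1444 in LN95(KO). Reads of such near-identical copies cannot be assigned with certainty, and RPS18 is not described further.

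The rule was also applied to replicates 1 and 3 alone, which gave 151 genes. In replicates 2 and 4 148 of these were lower in LN95(KO), against 48.1% of the 13818 genes with at least 1 CPM in replicate 1. At most 1/16 of the LNCaP95 level was found in 111 of the 151, against 1.02% of those genes, and 107 of the 111 also had at least 1 CPM in LNCaP95 replicate 2. Replicates 2 and 4 hold the same contrast of the same lines, and the libraries of a group may not be separate cultures. These counts therefore describe agreement between libraries and lend no further weight to the selection. The median fold in replicates 2 and 4, with counts of 0 set to 1, was 28.8. The genes that missed the limits in the held-out libraries included PKNOX2, which had 3 reads in LN95(KO) replicate 3 and 14 in replicate 4. At the limits of the full rule, PIRT, RIMS4 and CYFIP2 were just inside with LNCaP95 levels 16.3, 16.4 and 16.5 times those of LN95(KO). TMEM163, BEND6 and PLA2G2F were just outside, at 15.99, 15.9 and 15.4 times. By level, SYNPR-AS1 (1.01 CPM) and SPANXA2-OT1 (1.04 CPM) were just inside, and KRTAP5-AS1 and AMPH (both 0.985 CPM) just outside.

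By biotype, 104 members were protein-coding, 19 were long noncoding RNAs and 4 were pseudogenes. Protein-coding genes made up 81.9% of the members and 85.2% of all genes with at least 1 CPM in LNCaP95, and long noncoding RNAs 14.96% and 8.96%.

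LUZP2, which encodes a leucine zipper protein expressed mainly in brain, had the most reads in LNCaP95 among the members with 3 or fewer reads in LN95(KO). It had 3901 and 3816 reads in LNCaP95, compared with 2 and 1 in LN95(KO), or 206 ± 2.53 and 0.0855 ± 0.0423 CPM (SD, n = 2). The ratio of the lines was 2420, with a 95% exact binomial interval of 828 to 11738. LUZP2 spans 586 kb on chromosome 11 (24518516 to 25104184, GRCh37, plus strand). The nearest member along the chromosome was the long noncoding RNA LINC02726 (23752134 to 23818516), with 308 and 351 reads in LNCaP95 but 5 and 2 in LN95(KO).

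DAB1, the intracellular adaptor of reelin signaling, had 1898 and 1903 reads in LNCaP95 versus 0 and 2 in LN95(KO), which gave a ratio of 1788 with an interval of 495 to 14769. It was the longest member, at 1552 kb on chromosome 1 (57460451 to 59012406). RELN, the gene of reelin itself, had 355 and 365 reads in LNCaP95, compared with 10 and 1 in LN95(KO), where the 2 libraries differed. Ligand and adaptor were therefore both members, and the receptors were not. VLDLR had 306 and 330 reads against 338 and 367, and LRP8 had 452 and 436 against 785 and 908. Of 23 other genes of the pathway tested, 3 fell and 0 rose, with a median log2 fold change (LN95(KO) over LNCaP95) of -0.17. FYN, a kinase that phosphorylates DAB1, fell with -1.38 on the log2 scale (SE 0.11, adjusted p = 8.52e-09), and the integrin subunit ITGA3 fell with -1.60 (SE 0.09, adjusted p = 1.58e-10). DAB2, a relative of DAB1, had 20 and 14 reads in LNCaP95 but 2 and 10 in LN95(KO), and its call was lost without LNCaP95 replicate 1 or LN95(KO) replicate 3. The kinase SRC was not called (log2 fold change 0.62). In all genes tested 9.13% were called lower and 8.86% higher. The counts of this list and of each list below are to be read against these shares.

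WDR72 encodes a WD-repeat protein required for the maturation of tooth enamel. It had 306 and 331 reads in LNCaP95 versus 0 and 0 in LN95(KO), so its level was at least 199.8-fold higher in LNCaP95 against a floor of 3 counts over both LN95(KO) libraries. No other enamel gene examined was a member. Of 6 others tested, 0 fell and 1 rose. This was LAMB3, a laminin chain of epithelial basement membranes, with 20 and 19 reads against 115 and 96 (log2 fold change 2.46, SE 0.23, adjusted p = 6.43e-08). The enamel protease KLK4, which is also a prostate gene, had 4519 and 4332 reads against 3504 and 3446 and was not called.

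SPAG16, a protein of the central pair of microtubules in sperm tails and motile cilia, had 213 and 215 reads in LNCaP95, compared with 0 and 0 in LN95(KO), and its level in LNCaP95 was at least 134-fold higher. CFAP107, a protein inside the outer microtubules of cilia, was also a member, with 1204 and 1104 reads against 6 and 5. Of 12 other central apparatus genes tested, 4 fell and 1 rose, and the median log2 fold change was -0.61. CFAP69 fell with -1.51 (SE 0.11, adjusted p = 2.89e-09), CFAP65 with -1.78 (SE 0.31, adjusted p = 8.82e-05) and CFAP99 with -1.29 (SE 0.25, adjusted p = 0.000275). The other calls rested on few reads. CFAP46 had 15 and 14 reads against 1 and 8, and its call was lost without either LNCaP95 library or without LN95(KO) replicate 3. CFAP221 had 9 and 5 against 15 and 21, and its call was lost without LNCaP95 replicate 2 or LN95(KO) replicate 4. HYDIN (log2 fold change -0.70) and KIF9 (-0.06) were not called.

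PRSS1, cationic trypsinogen of the exocrine pancreas, had 1981 and 1923 reads in LNCaP95 but 5 and 4 in LN95(KO), and the lines differed 407-fold. PRSS3P2, a trypsinogen pseudogene that starts on the same strand beyond the end of PRSS1 in the cluster on chromosome 7, had 50 and 75 reads against 0 and 0. The relative on another chromosome, PRSS3, was not a member but fell, from 96 and 71 reads to 12 and 2 (log2 fold change -3.52, SE 0.39, adjusted p = 8.31e-07). Close trypsinogen copies can exchange or lose reads in counting, so their separate values are uncertain. PRSS2 was not analysed here. Of the 17 pancreatic genes found, these trypsinogens included, 9 were at 0 in all 4 libraries.

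**Figure D2:**
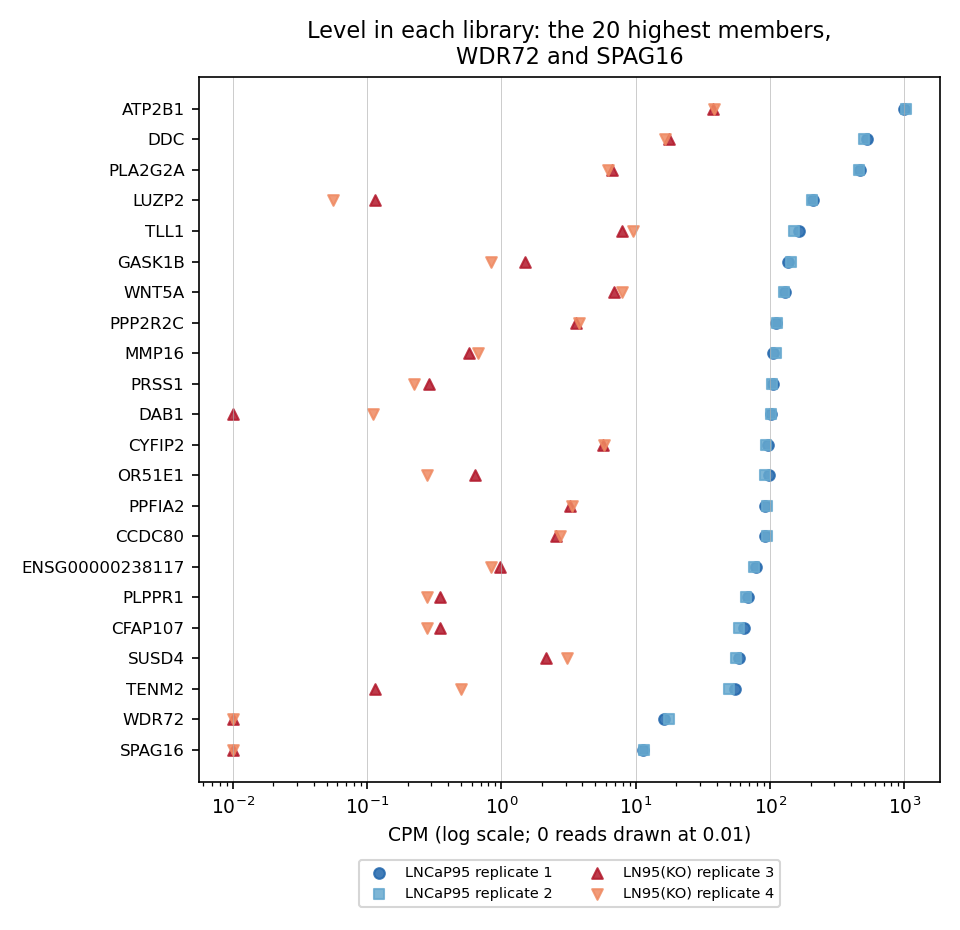
Level of the 20 members with the highest LNCaP95 level, and of WDR72 and SPAG16, in each library (x axis, CPM on a log scale, 0 reads drawn at 0.01). Blue symbols are the 2 LNCaP95 libraries and red symbols the 2 LN95(KO) libraries. The groups do not overlap for any gene shown, which follows from the selection of the members.

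By reads, the largest member was ATP2B1, a calcium pump of the plasma membrane, with 18764 and 19264 reads in LNCaP95 versus 656 and 682 in LN95(KO). DDC, the decarboxylase that forms dopamine and serotonin from their precursors, had 9861 and 9323 against 308 and 299. PLA2G2A, a secreted phospholipase, had 8836 and 8554 against 115 and 112. Per kilobase of transcript the order differed, with PLA2G2A at 355 CPM per kb in LNCaP95, DDC at 254 and ATP2B1 at 140. The long noncoding RNA ENSG00000238117, which lies within NTM on the other strand, reached 152 CPM per kb and had 1485 and 1428 reads against 17 and 15. These highly expressed members stayed detectable in LN95(KO), where ATP2B1 was at 37.9 ± 0.0458 CPM, DDC at 17.2 ± 0.812 CPM and PLA2G2A at 6.43 ± 0.289 CPM (SD, n = 2).

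Genes of synaptic adhesion gave 12 members. The neurexin NRXN2 had 40 and 60 reads in LNCaP95, compared with 1 and 3 in LN95(KO), and the neuroligin NLGN1 had 383 and 416 against 19 and 18. LRRTM3 and SLITRK2, postsynaptic partners of presynaptic receptors, had 45 and 33 and 32 and 37 reads in LNCaP95 and none in LN95(KO). The secreted linker CBLN2 had 184 and 174 against 6 and 14. Adhesion proteins with wider roles were among the more abundant of this group. TENM2, a teneurin, had 1030 and 932 reads against 2 and 9. CTNND2, the delta-catenin of neural adherens junctions, had 499 and 498 against 1 and 4. CADM1, an immunoglobulin-type adhesion molecule, had 293 and 294 against 1 and 0, and NTM, an adhesion protein anchored by lipid, had 243 and 276 against 1 and 1. PCDH19, CDH8 and NCAM1 completed the group with 154 and 170, 51 and 53, and 19 and 32 reads in LNCaP95 and at most 4 in any LN95(KO) library. Of the 19 other genes of the list tested, 6 fell and 3 rose, with a median log2 fold change of -0.48. TENM4 fell from 46 and 62 reads to 10 and 3, and FLRT1 from 174 and 210 to 49 and 33. NRXN3, NCAM2 and NLGN2 also fell, with log2 fold changes of -2.14, -1.80 and -1.03, and NLGN2 lost its call without LNCaP95 replicate 2 or LN95(KO) replicate 3. Relatives of the members moved the other way as well. TENM1 rose from 55 and 28 reads to 2177 and 1942 (log2 fold change 5.66, SE 0.16, adjusted p = 9.81e-11), CADM2 rose from 0 and 0 to 17 and 19, and ADGRL2, a teneurin receptor, rose from 21 and 21 to 110 and 84. Among the teneurins, TENM2 was thus near silent in LN95(KO) while TENM1 was far higher there than in LNCaP95.

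The machinery of transmitter release gave 7 members. PPFIA2, liprin-alpha-2 of the presynaptic active zone, had 1737 and 1782 reads in LNCaP95 but 56 and 60 in LN95(KO). RIMS4, a small RIM protein, had 387 and 381 against 20 and 24, and SV2B, a synaptic vesicle membrane protein, had 243 and 289 against 8 and 4. SNAP91, a clathrin adaptor for vesicle recycling, had 196 and 201 against 9 and 3. The endophilin SH3GL2, the synaptotagmin SYT3 and the vesicle-priming UNC13C had 77 and 101, 84 and 83, and 25 and 29 reads against 7 and 1, 5 and 4, and 0 and 0. In the rest of the list 8 of 25 genes tested fell and 2 rose (median log2 fold change -0.43). PCLO, a giant scaffold of the active zone, fell from 141 and 168 reads to 13 and 11 (log2 fold change -3.64, SE 0.23, adjusted p = 4.38e-10), and SYN2 fell from 71 and 54 to 9 and 5. AMPH, ERC2, UNC13A, SH3GL3 and SYT4 fell with log2 fold changes from -4.87 to -1.23. The 2 that rose, PPFIA4 (2.39) and SV2C (1.77), are close relatives of the members PPFIA2 and SV2B. The vesicle protein SYP was not called, with 45 and 44 reads against 42 and 42, and SNAP25 had at most 3 reads in any library.

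Transcription factors of neural development and patterning gave 9 members. TOX3, an HMG-box factor, was the most abundant by reads, with 756 and 797 in LNCaP95 against 3 and 0 in LN95(KO). TSHZ3, a zinc-finger factor, had 307 and 282 against 6 and 1, and the homeobox gene PKNOX2 had 203 and 210 against 3 and 14. MYCN, a MYC relative, was at 32 and 19 reads against 0 and 0, near the lower limit of the rule. ID4, PRRX1, EMX1 and DMRT3 had 20 to 36 reads per LNCaP95 library and 0 to 3 per LN95(KO) library. Other genes of the list moved in both directions, with 4 of 17 called lower and 2 higher. PROX1 fell from 65 and 74 reads to 12 and 12 (log2 fold change -2.49, SE 0.27, adjusted p = 4.46e-07) and ID2 fell with -1.17, whereas MYCL rose from 124 and 104 to 280 and 314 and ID3 rose with 1.10. The call of POU3F2 (29 and 25 reads against 7 and 15) was lost without LNCaP95 replicate 1 or LN95(KO) replicate 3, that of TOX (23 and 24 against 10 and 11) without any 1 library, and that of ID3 without LN95(KO) replicate 4. REST, the repressor of neuronal genes, had 1150 and 1236 reads against 764 and 842 and was not called (log2 fold change -0.54). INSM1 and SOX2 had at most 1 read in any library.

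Among amines and neuropeptides, DDC, NTS and ADRA2C were members. NTS, the gene of neurotensin, had 26 and 23 reads against 0 and 0, and ADRA2C, an adrenergic receptor, had 173 and 152 against 9 and 2. TH, the enzyme upstream of DDC in dopamine synthesis, had at most 1 read in any library, and MAOA, which degrades amines, was not called (log2 fold change -0.04). CHGA, the standard neuroendocrine marker, had 0 reads in all 4 libraries. Of 6 others tested, 3 fell and 1 rose. CPE, a peptide-processing enzyme, fell from 1089 and 1093 reads to 376 and 430, ADRA2A fell from 41 and 37 to 2 and 5, CALCA fell from 46 and 40 to 8 and 11, and SCG5 rose from 3 and 5 to 18 and 26.

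The list of hedgehog, WNT5A and activin genes gave 4 members. WNT5A, the main noncanonical Wnt ligand, had 2417 and 2376 reads in LNCaP95 versus 119 and 141 in LN95(KO). SHH, the sonic hedgehog ligand, had 41 and 29 against 2 and 0. PTCHD1, a patched-related membrane protein, had 68 and 66 against 0 and 0. INHBA, the subunit of activin A, had 40 and 29 against 1 and 1. The WNT5A receptors differed, since ROR2 fell from 34 and 31 reads to 7 and 7 (log2 fold change -2.16, SE 0.36, adjusted p = 6.34e-05) while FZD5 rose from 205 and 229 to 618 and 612 and ROR1 rose with 1.01. ROR1 passed the 2-fold limit narrowly and lost its call without LNCaP95 replicate 2 or LN95(KO) replicate 4. PTCH1, the hedgehog receptor, rose from 212 and 233 to 779 and 764 (log2 fold change 1.83, SE 0.09, adjusted p = 8.48e-12), and GLI3 fell from 334 and 330 to 108 and 115. GLI1, a hedgehog target, had 7 and 4 reads against 11 and 16, and its call was lost without any 1 library. INHBB, the other activin subunit, fell from 350 and 322 to 23 and 23. The ligand genes WNT5A, SHH and INHBA were thus members, with WNT5A still at 7.35 CPM in LN95(KO), while of 14 other genes tested 3 fell and 4 rose.

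The list of extracellular matrix and matrix protease genes, which also holds transglutaminases (enzymes that crosslink proteins), gave 8 members. TLL1, a tolloid protease that processes procollagen, had 3065 and 2835 reads against 137 and 172, and MMP16, a membrane-bound matrix metalloproteinase, had 1978 and 2075 against 10 and 12. CCDC80, a secreted matrix protein, had 1715 and 1785 against 44 and 49, and OLFM2, an olfactomedin, had 952 and 910 against 20 and 27. FRAS1, a basement membrane protein, had 239 and 222 against 3 and 0. The transglutaminase TGM3, COL5A1 and LUM had 240 and 248, 145 and 100, and 24 and 19 reads in LNCaP95 and 0 to 8 in LN95(KO). Of TGM3's exon bases 94.8% lie under exons of other annotated genes, so its reads cannot be assigned to it with certainty. Of 9 others tested, 1 fell (OLFM1, 31 and 50 reads against 5 and 6) and 1 rose (FREM1, a partner of FRAS1, 0 and 1 against 18 and 10).

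In all, 49 members belonged to the 10 lists. Of 133 other list genes tested, 33 fell (24.8%, against 9.13% of all genes tested) and 15 rose (11.3%, against 8.86%), with a median log2 fold change of -0.26. The median over all genes tested was -0.01. The lists were written with earlier results of these data known, so their shares describe these genes and no more.

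Other abundant members fall outside the lists. GASK1B, a Golgi-resident kinase-like protein, had 2556 and 2682 reads against 26 and 15. PPP2R2C, a regulatory subunit of protein phosphatase 2A, had 2065 and 2114 against 62 and 68. CYFIP2, a component of the complex that activates WAVE and actin branching, had 1828 and 1736 against 99 and 104. PLPPR1, a membrane protein of neurite outgrowth, had 1283 and 1248 against 6 and 5, and SUSD4, a complement regulator, had 1098 and 1049 against 37 and 55. These members thus came from phosphorylation, the cytoskeleton, membranes and complement.

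Some members lay together on a chromosome. Within 500 kb of another member were 34 of the 127 (26.8%), in 13 pairs, 1 run of 3 and 1 run of 5. The same share was not computed for other genes, so 26.8% is a description only. In some pairs a member lies within the span of the other, as WNT5A-AS1 does in WNT5A and ENSG00000253357 in TENM2. The run of 5 covered 529 kb of chromosome 3 (111839686 to 112368377, GRCh37). It held GCSAM, a signaling protein of germinal center B cells (315 and 288 reads against 13 and 5), CD200, a surface ligand that restrains myeloid cells (410 and 403 against 0 and 3), the long noncoding RNA ENSG00000243081 (198 and 224 against 3 and 2), BTLA, an inhibitory receptor of lymphocytes (52 and 52 against 1 and 3), and CCDC80. The remaining expressed genes in the same stretch were lower by much less. ATG3, an autophagy enzyme, fell from 4451 and 4315 reads to 1414 and 1477 (log2 fold change -1.57, SE 0.05, adjusted p = 4.92e-14). SLC35A5 fell with -1.03 and C3orf52 with -1.28, each a call that 1 alternative setting removed. Outside the stretch PHLDB2, at 144 kb, rose (1.35), and ABHD10, PLCXD2, GTPBP8 and NEPRO were not called, with log2 fold changes between -0.27 and 0.24. Within the stretch, members thus lay beside genes with smaller differences. C3orf52 was low in both lines, with 39 and 41 reads against 15 and 17.

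**Figure D3:**
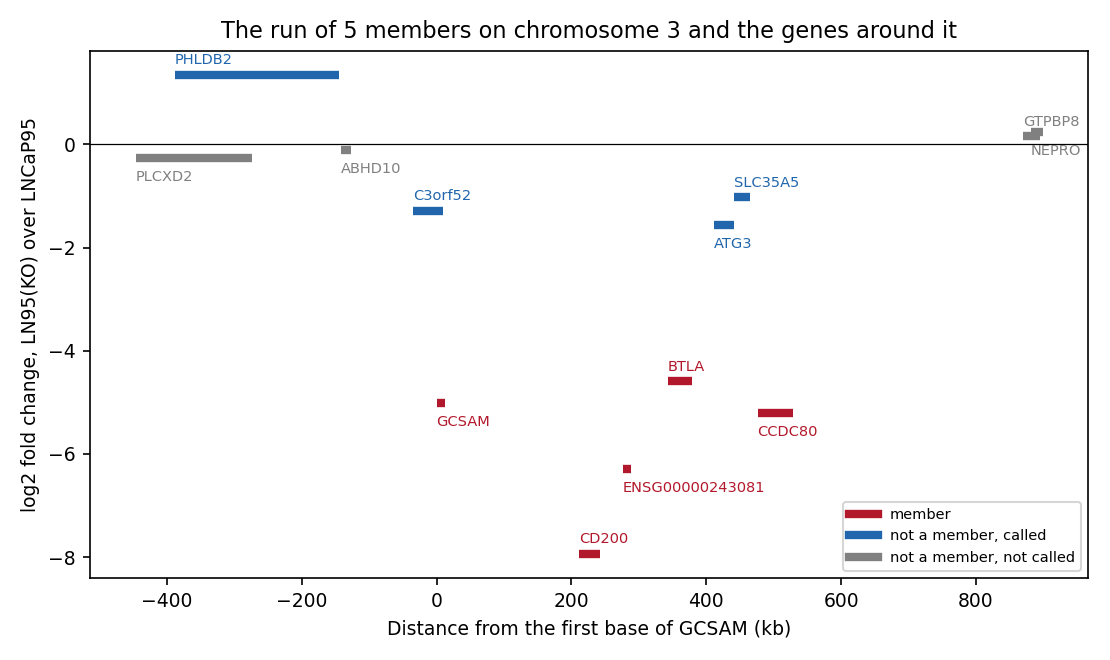
Log2 fold change of LN95(KO) over LNCaP95 (y axis) for the expressed genes around the run of 5 members on chromosome 3, drawn as bars over their extent (x axis, kb from the first base of GCSAM). Members (red) lie between -4.58 and -7.94, genes called but not members (blue) between -1.57 and 1.35, and genes not called (grey) near 0.

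The run of 3 covered 54.4 kb of chromosome 11 (4664650 to 4719084) and consisted of olfactory receptor genes. OR51E1 had 1845 and 1708 reads against 11 and 5, and OR51E2, also known as prostate-specific G protein-coupled receptor, had 439 and 449 against 1 and 1. The pseudogene OR51A9P between them had 37 and 31 against 0 and 1. Next to the run, TRIM68 (log2 fold change -0.66) and TRIM21 (0.10) were not called. A cluster of receptor genes was thus near silent beside neighbors that were not.

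Of the pairs, 11 joined a protein-coding gene to a long noncoding RNA, 8 of them on opposite strands, including ATP2B1 with ATP2B1-AS1 (409 and 403 reads against 12 and 10), WNT5A with WNT5A-AS1 (62 and 76 against 2 and 0), GASK1B with GASK1B-AS1 (58 and 78 against 0 and 0) and PRKCQ, a protein kinase C of T cells (81 and 68 against 1 and 0), with PRKCQ-AS1 (124 and 113 against 5 and 3). Counting did not use strand. Reads on exons shared by a gene and its antisense partner were left out, and elsewhere in their overlap the strand of origin of a read is unknown. The exons of PRKCQ, PRKCQ-AS1, WNT5A and WNT5A-AS1 had no overlap with exons of other annotated genes. WNT5A-AS1 nevertheless lies within the span of WNT5A, so unspliced WNT5A RNA could add to its reads. Over 10% of the exon bases lay under exons of other annotated genes in 12 members, among them GASK1B-AS1 (26.6%), TSPAN7 (23.0%), SLITRK2 (22.0%) and PPFIA2 (20.5%). WDR72 was paired with UNC13C, PRSS1 with PRSS3P2 and ADRA2C with LINC02600.

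Expressed genes next to members were examined because the selection did not use them. For each member, the nearest gene on either side that was not a member and had at least 1 CPM in LNCaP95 was taken, which gave 210 neighbors. Of these 44 fell (21.0%) and 8 rose (3.81%), against 8.39% and 5.95% of the 13688 tested genes with at least 1 CPM that were not members. That set includes the neighbors. The median log2 fold change was -0.19 for the neighbors and -0.03 for that set. The share depended on distance. Within 100 kb of the member 21 of 62 neighbors fell (33.9%) and 0 rose, with a median of -0.52. Beyond 100 kb 23 of 148 fell (15.5%) and 8 rose (5.41%). Among the 51 within 100 kb that did not overlap a member, 16 fell. Genes are not independent replicates, and no test of these shares was made.

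**Figure D4:**
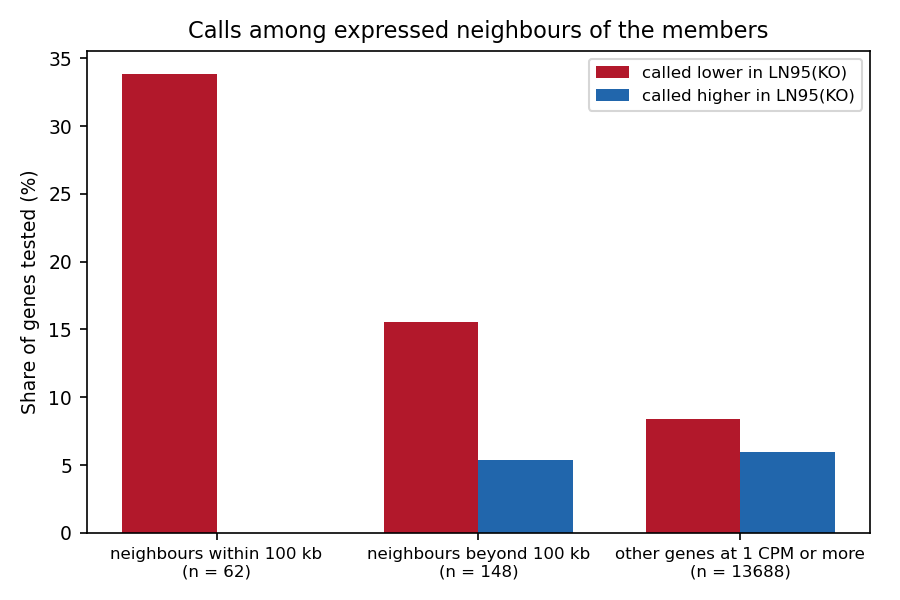
Share of tested genes called lower (red) or higher (blue) in LN95(KO) (y axis, percent) among neighbors within 100 kb of a member, neighbors beyond 100 kb, and other genes with at least 1 CPM in LNCaP95. The other genes are all those that were not members, the neighbors included. The shares called lower were 33.9%, 15.5% and 8.39%, and those called higher 0%, 5.41% and 5.95%.

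The neighbors that fell were mostly still expressed. NIPSNAP3A, 4.01 kb from its relative NIPSNAP3B (a member with 35 and 25 reads against 1 and 0), fell from 10770 and 10028 reads to 1104 and 1179 (log2 fold change -3.15, SE 0.06, adjusted p = 1.32e-17). ABCA1, a cholesterol exporter on the other side of NIPSNAP3B, fell from 43 and 40 to 6 and 2. CHRM3, a muscarinic acetylcholine receptor gene overlapped by the member CHRM3-AS2, fell from 5185 and 5179 to 633 and 655 (-2.98, SE 0.06, adjusted p = 2.5e-17). GRB10, an adaptor of insulin signaling 24.7 kb from DDC, fell from 15199 and 15362 to 3084 and 3062 (-2.28, SE 0.05, adjusted p = 1.45e-16). WLS, the carrier that brings Wnt proteins to the cell surface, lies 46.8 kb from the imprinted RAS relative DIRAS3 (60 and 39 reads against 1 and 0) and fell from 1835 and 1818 to 256 and 260. LDOC1, 0.155 kb from SPANXA2-OT1, fell from 12149 and 11666 to 2826 and 2980. These genes thus stayed clearly expressed in LN95(KO), apart from ABCA1, which was low in both lines. ST7 and CTTNBP2, on either side of the germ cell gene ASZ1 (34 and 25 reads against 0 and 0), fell with -2.55 and -2.91, and AUTS2, next to GALNT17, fell with -2.70. The 8 neighbors that rose lay 218 kb or more from a member. ZWINT, a kinetochore protein 3327 kb from LINC02672, rose from 208 and 202 reads to 1255 and 1608, and ECT2, a cytokinesis regulator 575 kb from NLGN1, rose from 303 and 293 to 1001 and 1232.

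The loci of the leading genes differed in this respect. Around SPAG16, BARD1 (2379 and 2378 reads against 565 and 720, log2 fold change -1.86), IKZF2 (-1.62) and the noncoding genes ENSG00000270659 (-3.18) and SNHG31 (-1.30) fell, and the pseudogene RPL10P6 was not called (38 and 34 reads against 34 and 39). Beyond PRSS3P2, the calcium channel TRPV6 fell from 1878 and 1919 reads to 824 and 747 and EPHB6 from 15 and 19 to 1 and 4, whereas GSTK1 farther away was not called (1117 and 1050 against 1418 and 1380) and KEL (2 and 5 against 8 and 12) was not tested. Around DAB1, by contrast, OMA1, which overlaps it, was not called (845 and 925 reads against 591 and 567), nor were MYSM1 (0.24) and JUN (-0.14), and PLPP3 rose (1.38), although the noncoding LINC01135 (28 and 21 reads against 5 and 8) and LINC02777 (56 and 64 against 36 and 17) beyond JUN fell. The protein-coding genes around DAB1 were thus not lower by the call used here, while those around SPAG16 were. The genes of this paragraph other than the neighbors were chosen by position.

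Members were spread over 20 chromosomes. Their share among expressed genes was highest on chromosome 4 (11 of 520 genes, 2.12%), followed by chromosome 3 (15 of 786), X (9 of 481) and 11 (14 of 771), and no member lay on chromosomes 14, 21 or 22. On chromosome 17 there was 1 of 830 (0.120%). Over all expressed genes the share was 0.919%, and chromosomes 14, 22 and 21 had only 441, 342 and 136 such genes. The run of 5 members lies on chromosome 3 and the run of 3 on chromosome 11. No test of these shares was made.

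Gene length was the most visible feature that the rule had not used. Members spanned a median of 105 kb (quartiles 17.7 and 287 kb) from first to last annotated base, and the other genes with at least 1 CPM spanned 29.3 kb (quartiles 10.3 and 74.99 kb). In protein-coding genes the medians were 124 and 34.5 kb, and 34.6 kb in other protein-coding genes between 1 and 20 CPM, where most members lay. A span over 500 kb was found in 19 members (14.96%) and in 1.19% of the other genes, and a span over 100 kb in 66 members (52.0%) and 18.6%. The 5 over 1 Mb were DAB1, TENM2, GALNTL6, SPAG16 and NRG3. The 101 genes of the reverse rule had a median span of 32.045 kb (100 with an annotation). Long genes were present among them too, with 31 over 100 kb and 6 over 500 kb, and an upper quartile of 140 kb. Spliced length and exon number differed less, at medians of 3873 against 3652 bases and 11 against 10 exon blocks, and GC content of the transcript was 45.7% against 47.8%. The difference in length thus lay in intron sequence.

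**Figure D5:**
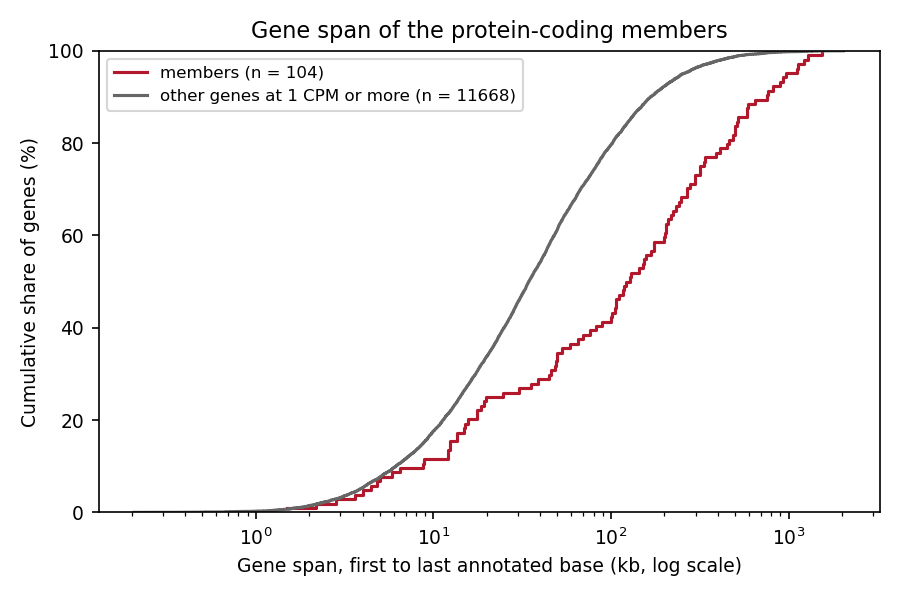
Cumulative share of genes (y axis, percent) by span from first to last annotated base (x axis, kb on a log scale) for the 104 protein-coding members and 11668 other protein-coding genes with at least 1 CPM in LNCaP95. The member curve lies to the right above about 10 kb, with medians of 124 and 34.5 kb.

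RefSeq promoter windows were matched for 87 members, which had 137 annotated starts. The windows held a median of 5.33 CG dinucleotides per 100 bases, against 8.33 in windows of other genes with at least 1 CPM and 4.67 in all 35116 windows of the table. Fewer than 2 per 100 bases, as in the PRSS1 and WDR72 windows printed above, were found in 29.2% of member windows, 10.6% of windows of other expressed genes and 33.7% of all windows. In this the members resembled the whole table more than expressed genes. These sets were not matched for expression level, and members had lower levels than the other expressed genes. For the genes of the reverse rule the median was 2.67 and the share 39.8%.

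Short motifs were counted in the windows on both strands, none of which contains another. The GC box GGGCGG was present in 49.6% of member windows, 66.3% of windows of other expressed genes and 45.0% of all windows, and CCAAT in 27.7%, 34.8% and 34.6%. TATAAA was present in 13.9%, 5.79% and 11.5%, and was found in the PRSS1 window. The FOXA motif TGTTTAC was present in 5.11%, 2.57% and 3.42%, and was found in the SPAG16 window. The E-box CAGCTG had shares of 21.9%, 17.03% and 17.9%, the cyclic AMP element TGACGTCA 2.19%, 2.88% and 1.85%, and the AP-1 motif TGACTCA 2.19%, 3.30% and 4.95%. Such matches describe the letters of a window. GC content had medians of 61.3%, 65.0% and 58.7% in the same sets, and its part in these shares was not tested.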

How the data were processed

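RNA-Seq was deposited for 2 LNCaP95 and 2 LN95(KO) libraries. Deposited values are raw read counts for each gene, neither scaled nor filtered. Per the labels and the study's methods, the authors used HISAT2 (version 2.1.0) for alignment to hg19 and HTSeq with a GENCODE annotation, ignoring strand, for counting. HTSeq leaves out reads on more than 1 gene or aligned more than once, so overlapping genes and close copies can lose reads. Groups came from the sample titles. The series table held the counts of the single files (0 cells differed). It lists 60880 genes, of which 59859 matched a symbol; the others held 0.0594% of gene reads. Summary lines, 23.8% to 27.5% of all entries, were left out.

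CPM used the total gene reads of each library. A ratio for a gene with 1 to 3 reads in LN95(KO) carries an exact binomial 95% interval, and with 0 reads it is a bound against 3 counts. Tests used the quasi-likelihood test of edgeR 4.0.16 in R 4.3.3 (TMM, filterByExpr with minimum count 10 and minimum total 15, robust, no covariate), which left 15626 genes. Adjustment was by Benjamini-Hochberg over all of them, and the biological coefficient of variation was 4.27%. No permutation test was used, because groups of 2 cannot give a two-sided p below 0.333. Replicates differed by more than sampling noise (chi-square per degree of freedom 2.44 and 3.58) and were kept as separate libraries.

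Coordinates, spans, exons and overlaps came from GENCODE release 44 on GRCh37, and promoter windows from RefSeq on GRCh38.p14. Named genes were the 5 leading genes LUZP2, DAB1, WDR72, SPAG16 and PRSS1, the 20 members with the highest LNCaP95 level, members in a role list or within 500 kb of another member, and called list genes or neighbors. Other names were chosen after their values were seen, and some genes under this rule and 1 motif are not reported here. The members and lists were chosen with earlier results of these data known. Alternatives were DESeq2 1.42.0, other scalings, filters and limits, and leaving out each library. The script was tested on simulated data.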

Additional observations from a re-analysis of the deposited data

Results flagged for a closer look

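The share of reads that were not aligned, which no comparison above uses, was higher in LN95(KO). It was 8.05% in replicate 3 and 7.71% in replicate 4, against 3.85% and 3.96% in the LNCaP95 libraries. These entries were left out of all totals, and their part in the members' low counts was not tested.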

How the results depend on the processing

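The number of members moved with the limits of the rule, from 127 to 217 at 1/8 and to 76 at 1/32. It was 132 with TMM scaling and lay between 133 and 146 when 1 library was left out, and 117 to 125 of the 127 members met the rule each time. Without the fold limit, the number of genes called lower over all genes was 4699 in place of 1427, neighbors called 144 in place of 52, and other list genes called 101 in place of 48. With 1 library left out, that number ranged from 1321 to 1440, neighbors called from 50 to 53 and list genes called from 43 to 45. Of 1405 values for 176 named genes under the alternatives, 1353 kept their direction and side of the thresholds, 52 in 20 genes lost the call, and 0 reversed. Many of these genes were named because they were members or had been called on this same contrast. The agreement therefore follows in part from the selection and lends it no further weight. No paired analysis was possible because LNCaP95 carries replicates 1 and 2 and LN95(KO) replicates 3 and 4.

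Depth limits what near-silent means, since a count of 0 allows up to 0.159 to 0.173 CPM and 32 members had under 2 CPM in LNCaP95.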
